A study of Homo sapiens with 15 samples.

Results

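The activin, inhibin and follistatin system was examined as 10 genes taken by symbol from the gene table: the inhibin and activin subunits INHA, INHBA and INHBB, the extracellular binders FST, FSTL3 and FSTL1, and the receptors ACVR1, ACVR1B, ACVR2A and ACVR2B. All 10 were present among the 37787 genes listed, and 9 had enough counts to be tested. INHA did not. RNA came from HGrC1, an immortalized non-luteinized human granulosa cell line whose own FOXL2 alleles are normal. The 15 libraries form 5 conditions of 3 replicates (A, B and C): Vectors (empty plasmids), FOXL2WT (wild-type FOXL2), FOXL2C134W (the FOXL2 variant of adult granulosa cell tumors), and FOXL2WT+FOXO1 and FOXL2C134W+FOXO1, which also received FOXO1-3A, a constitutively active nuclear form. SMAD3 was cotransfected in every condition except Vectors, so a comparison with Vectors covers FOXL2 and SMAD3 together. The cells, at passage 14, were transiently transfected for 4 h and kept for 24 h without serum, and the plasmids were overexpressed on top of the endogenous genes. The labels do not say that replicates were separate cultures, so p-values measure the spread between these libraries, which may be technical.

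Activins are secreted dimers of beta subunits, encoded here by INHBA and INHBB. Pairing of a beta subunit with the alpha subunit encoded by INHA gives inhibin, the antagonist that granulosa cells secrete and that serves as a blood marker of granulosa cell tumors. Activin binds a type II receptor, ACVR2A or ACVR2B, which recruits the type I receptor ACVR1B, and the signal passes through SMAD2, SMAD3 and SMAD4. Follistatin (FST) and FSTL3 bind activin and keep it from its receptors. FSTL1 carries a follistatin domain but is a more distant relative, and ACVR1 is a type I receptor best known for BMP signaling.

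Library totals ran from 14962245 to 25339094 estimated counts. FOXL2 rose from a mean of 8.73 CPM (counts scaled to library size, with no correction for gene length) in Vectors to 561 in FOXL2WT, 147 in FOXL2C134W, 384 in FOXL2WT+FOXO1 and 152 in FOXL2C134W+FOXO1. SMAD3 was at 249, 2768, 843, 969 and 392 CPM in the same order, and FOXO1 was at 13.2, 12.2, 12.0, 117 and 43.2 CPM. These are transcript levels, not protein. From an immunoblot of samples cultured in parallel, the paper describes FOXL2WT, FOXL2C134W and FOXO1 protein as balanced. SMAD3 transcript differed in every comparison below, always together with the form of FOXL2 or the amount of FOXL2 or FOXO1 transcript. The parts that differ within a comparison cannot be told apart. Not all of them differ in each: FOXO1 was near level between FOXL2WT and FOXL2C134W, and FOXL2 between FOXL2C134W and FOXL2C134W+FOXO1. Of the granulosa markers, GATA4 was at 129 to 154 CPM and WT1 at 38.8 to 47.7 CPM, whereas FSHR had 0 counts in every library and CYP19A1 had 0 to 4. Without the transfected FOXL2 itself, the other 14 granulosa markers summed to 4472 to 4598 CPM in Vectors, 4607 to 4762 CPM in FOXL2WT and 4550 to 4902 CPM in FOXL2C134W. Most of this sum came from the keratins KRT8 (2497 to 2849 CPM) and KRT18 (1668 to 1920 CPM). Others were low, such as AMHR2 with 0 to 7 counts, NR5A2 with 3 to 13 and AMH with 14 to 43. All 3 theca markers (CYP17A1, LHCGR and INSL3) had at most 3 counts in every library. The 6 fibroblast or stroma markers summed to 1590 to 1657 CPM in Vectors, 1136 to 1276 CPM in FOXL2WT and 1409 to 1418 CPM in FOXL2C134W, mostly from COL1A1 (1062 to 1582 CPM), while LUM had 0 to 6 counts. The 3 leukocyte markers summed to 103 to 117 CPM in Vectors and 92.1 to 96.9 CPM in FOXL2WT, nearly all from CD68, and PTPRC had 0 to 5 counts. The part of these shifts in the results below was not tested.

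The upstream regions of FST, FSTL3 and ACVR1B are shown because these genes gave the differences from Vectors that came closest to the threshold or passed it. Each window holds the 250 bases before the RefSeq transcription start (GRCh38.p14, plus strand) at chr5:53480379-53480628 for FST, chr19:676142-676391 for FSTL3 and chr12:51951449-51951698 for the first of the ACVR1B starts, written 5′ to 3′ in the direction of the gene. Capitals mark the GC box GGGCGG, the site of SP1-type factors, on either strand.
FST: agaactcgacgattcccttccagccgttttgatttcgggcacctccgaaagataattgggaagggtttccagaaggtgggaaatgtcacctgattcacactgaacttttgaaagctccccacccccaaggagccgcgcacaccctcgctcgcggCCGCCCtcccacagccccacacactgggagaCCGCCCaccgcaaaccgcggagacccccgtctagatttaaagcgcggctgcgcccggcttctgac
FSTL3: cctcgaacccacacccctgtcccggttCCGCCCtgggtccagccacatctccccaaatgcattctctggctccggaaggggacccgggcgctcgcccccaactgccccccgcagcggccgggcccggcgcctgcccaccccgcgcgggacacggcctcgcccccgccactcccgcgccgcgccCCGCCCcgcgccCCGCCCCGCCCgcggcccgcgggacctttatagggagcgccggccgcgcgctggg
ACVR1B: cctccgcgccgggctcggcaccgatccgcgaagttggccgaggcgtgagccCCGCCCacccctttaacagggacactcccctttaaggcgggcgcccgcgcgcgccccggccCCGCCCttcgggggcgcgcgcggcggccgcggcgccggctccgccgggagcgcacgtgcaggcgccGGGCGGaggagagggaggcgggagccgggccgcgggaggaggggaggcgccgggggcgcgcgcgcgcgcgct
The GC box occurred 2 times in the FST window, 4 times in the FSTL3 window, where the last 2 share a base, and 3 times in the ACVR1B window. Of 35116 RefSeq windows of the same length, 42.6% held it on either strand. The forkhead sequence GTAAACA (in 2.98% of windows), its core AAACA (in 40.4%, GTAAACA included), the FOXL2 sequence GTCAAGG (in 2.60%) and the SMAD sequence CAGAC (in 38.0%) were searched on both strands and were not among the letters of these 3 windows. Among the other windows of the 10 genes, the INHA window and a second, downstream ACVR1B window each held 1 AAACA and 1 CAGAC, the INHBA window held 3 AAACA, and the ACVR2A and ACVR2B windows each held 1 AAACA. Of the 3 ACVR1 windows, 1 held CAGAC and the others held 1 and 2 AAACA. All 10 genes matched a RefSeq entry. GTAAACA and GTCAAGG were in no window of these genes.

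Per unit length, the binders were the most abundant members, and INHBB and INHA the least. In TPM, a unit corrected for transcript length that allows genes to be compared, FSTL1 was at 1957 ± 82.8 (SD over 15 libraries), 37.5 times the level of FSTL3 at 52.2 ± 3.49. FST followed at 28.8 ± 2.53 TPM. Among the receptors ACVR1 was at 22.4 ± 1.34 TPM, ACVR1B at 14.1 ± 1.68, ACVR2A at 3.97 ± 1.49 and ACVR2B at 1.00 ± 0.163. INHBA was at 1.77 ± 0.291 TPM, INHBB at 0.534 ± 0.154 and INHA at 0.0783 ± 0.0572. This order held in all 15 libraries for each neighboring pair except ACVR2B and INHBB, where ACVR2B was higher in 14 of 15. The ranges over the libraries overlapped for FST with ACVR1 and for ACVR2B with INHBB, and were separate for every other neighboring pair. The spread of ACVR2A came from FOXL2C134W+FOXO1, where replicate B stood at 9.18 TPM because 3.73 estimated reads were assigned to a short transcript (ACVR2A-205), and its CPM below does not show this. Part of the FSTL1 TPM likewise came from a short transcript with few reads, described below. In CPM, without length correction, FSTL1 averaged 2789 and FSTL3 94.0 over the 15 libraries.

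**Figure D1:**
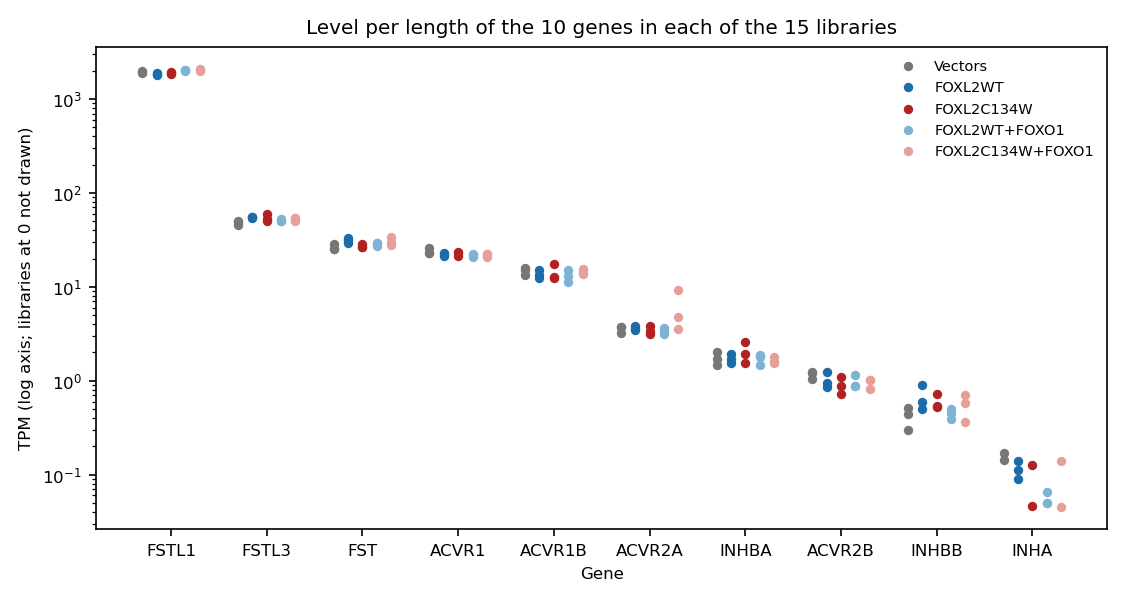
Level of the 10 genes in TPM on a log axis, with a point for each of the 15 libraries, colored by condition; libraries at 0 are not drawn. FSTL1 lies near 1957 TPM and INHA near 0.0783 TPM, and the order of the genes is nearly the same in every library.

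INHA, which encodes the alpha subunit of inhibin, had 0 to 4 estimated counts per library. It was at 0 in 3 of 15 libraries, where 3 counts, the upper limit that a count of 0 allows, would be 0.138 to 0.148 CPM and cover counting error only. Its mean was 0.0969 ± 0.0852 CPM (SD, n = 3) in Vectors, 0.109 ± 0.0245 in FOXL2WT and 0.0535 ± 0.0602 in FOXL2C134W, so no difference was detectable at this depth. In bulk RNA such as this, fewer cells of a type and less RNA per cell cannot be told apart.

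INHBA, the subunit of activin A, was measured at 6.54, 6.58 and 8.08 CPM in Vectors, 8.52, 8.19 and 7.31 CPM in FOXL2WT and 7.36, 7.48 and 9.03 CPM in FOXL2C134W. The groups overlapped. The 95% interval of the log2 difference was -0.09 to 0.43 for FOXL2WT against Vectors and -0.26 to 0.25 for FOXL2C134W against FOXL2WT. INHBB, the subunit of activin B, rested on 16 to 46 counts per library and was at 1.26, 1.14 and 0.760 CPM in Vectors and 2.34, 1.28 and 1.50 CPM in FOXL2WT. All FOXL2WT values lay above Vectors, but the lowest FOXL2WT value and the highest Vectors value nearly met. The log2 fold change of 0.71 (SE 0.30, 95% interval 0.08 to 1.33) did not pass the quasi-likelihood test of edgeR (adjusted p = 0.18). In FOXL2C134W, INHBB was at 1.82, 1.30 and 1.34 CPM, also above all Vectors values. The 95% interval of the log2 difference was -0.11 to 1.12 against Vectors (edgeR adjusted p = 0.28) and -0.80 to 0.39 against FOXL2WT (edgeR adjusted p = 0.71). With FOXO1 added, INHBB was at 1.16 ± 0.0883 CPM in FOXL2WT+FOXO1 and 1.38 ± 0.434 CPM in FOXL2C134W+FOXO1.

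FST, which encodes follistatin, the main soluble activin binder, was at 42.0, 41.5 and 41.7 CPM in Vectors, 46.1, 47.0 and 45.3 CPM in FOXL2WT, and 42.4, 42.1 and 41.1 CPM in FOXL2C134W. All FOXL2WT libraries lay above those of Vectors and FOXL2C134W, which overlapped. The log2 fold change was 0.14 (SE 0.05, 95% interval 0.04 to 0.24) for FOXL2WT against Vectors and -0.14 (SE 0.05, 95% interval -0.24 to -0.04) for FOXL2C134W against FOXL2WT, with edgeR adjusted p-values of 0.089 and 0.073. For FOXL2C134W against Vectors the interval was -0.10 to 0.11. Both FST differences passed with a GC content offset (edgeR adjusted p = 0.044 and 0.042). They also passed with DESeq2 and transcript length offsets, where the log2 fold changes were 0.26 (adjusted p = 0.027) and -0.23 (adjusted p = 0.045). Such offsets depend on the transcripts to which reads were assigned, among them the short FST-205 described below. Neither difference passed in any other setting, including DESeq2 without these offsets, the GC content offset with the replicate block, and each fit without a replicate. The FOXL2WT against Vectors and FOXL2C134W against FOXL2WT comparisons share the FOXL2WT libraries and are not independent of each other.

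With FOXO1, FST was at 42.9, 42.4 and 44.8 CPM in FOXL2WT+FOXO1, all below the FOXL2WT libraries, and at 44.5, 42.0 and 46.1 CPM in FOXL2C134W+FOXO1, overlapping those of FOXL2C134W. The interaction, which subtracts the FOXO1 effect seen with FOXL2WT from the one seen with FOXL2C134W, was 0.16 on the log2 scale (SE 0.07, 95% interval 0.02 to 0.31), with an unadjusted p of 0.026 in the quasi-likelihood test across all genes and an edgeR adjusted p of 0.31.

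FSTL3, a secreted binder like follistatin, was at 78.0, 88.0 and 89.0 CPM in Vectors and 98.3, 99.9 and 97.0 CPM in FOXL2WT, without overlap. In FOXL2C134W it was at 107, 88.8 and 90.6 CPM, which overlapped Vectors. The log2 fold change of 0.21 (SE 0.07, 95% interval 0.07 to 0.35) for FOXL2WT against Vectors had an edgeR adjusted p of 0.078, and that of 0.17 (SE 0.07) for FOXL2C134W against Vectors had one of 0.11. The FOXL2WT difference passed with DESeq2 (adjusted p = 0.046), with a filter that keeps every gene with a count (edgeR adjusted p = 0.0040), in a fit of those 6 libraries alone (0.0083) and with the GC content offset (0.037). The FOXL2C134W difference passed only with the looser filter (edgeR adjusted p = 0.021). The FOXO1 conditions, at 95.6 ± 5.93 and 95.7 ± 4.94 CPM, had means between those of Vectors and FOXL2WT.

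FSTL1, at 40590 to 70996 counts per library, had the highest counts of the 10 genes and the narrowest intervals. It was at 2771, 2862 and 2839 CPM in Vectors, 2822, 2802 and 2721 CPM in FOXL2WT and 2662, 2682 and 2627 CPM in FOXL2C134W. FOXL2C134W was the lowest condition and overlapped neither of the others. The log2 fold change against Vectors was -0.09 (SE 0.03, 95% interval -0.16 to -0.02, edgeR adjusted p = 0.090). With FOXO1 it stood at 2826, 2778 and 2959 CPM in FOXL2C134W+FOXO1, above all FOXL2C134W libraries, a log2 fold change of 0.10 (SE 0.03, 95% interval 0.03 to 0.17) that did not pass the edgeR test (adjusted p = 0.19) and passed with DESeq2 and transcript length offsets (0.13, adjusted p = 0.029). Both differences use the same FOXL2C134W libraries. Between FOXL2WT and FOXL2WT+FOXO1 the libraries overlapped in CPM (2782 ± 53.7 and 2826 ± 97.5), whereas in TPM, which depends on the transcript assigned, the means were 1861 ± 42.1 and 2031 ± 28.2. With DESeq2 and transcript length offsets that difference passed.

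**Figure D2:**
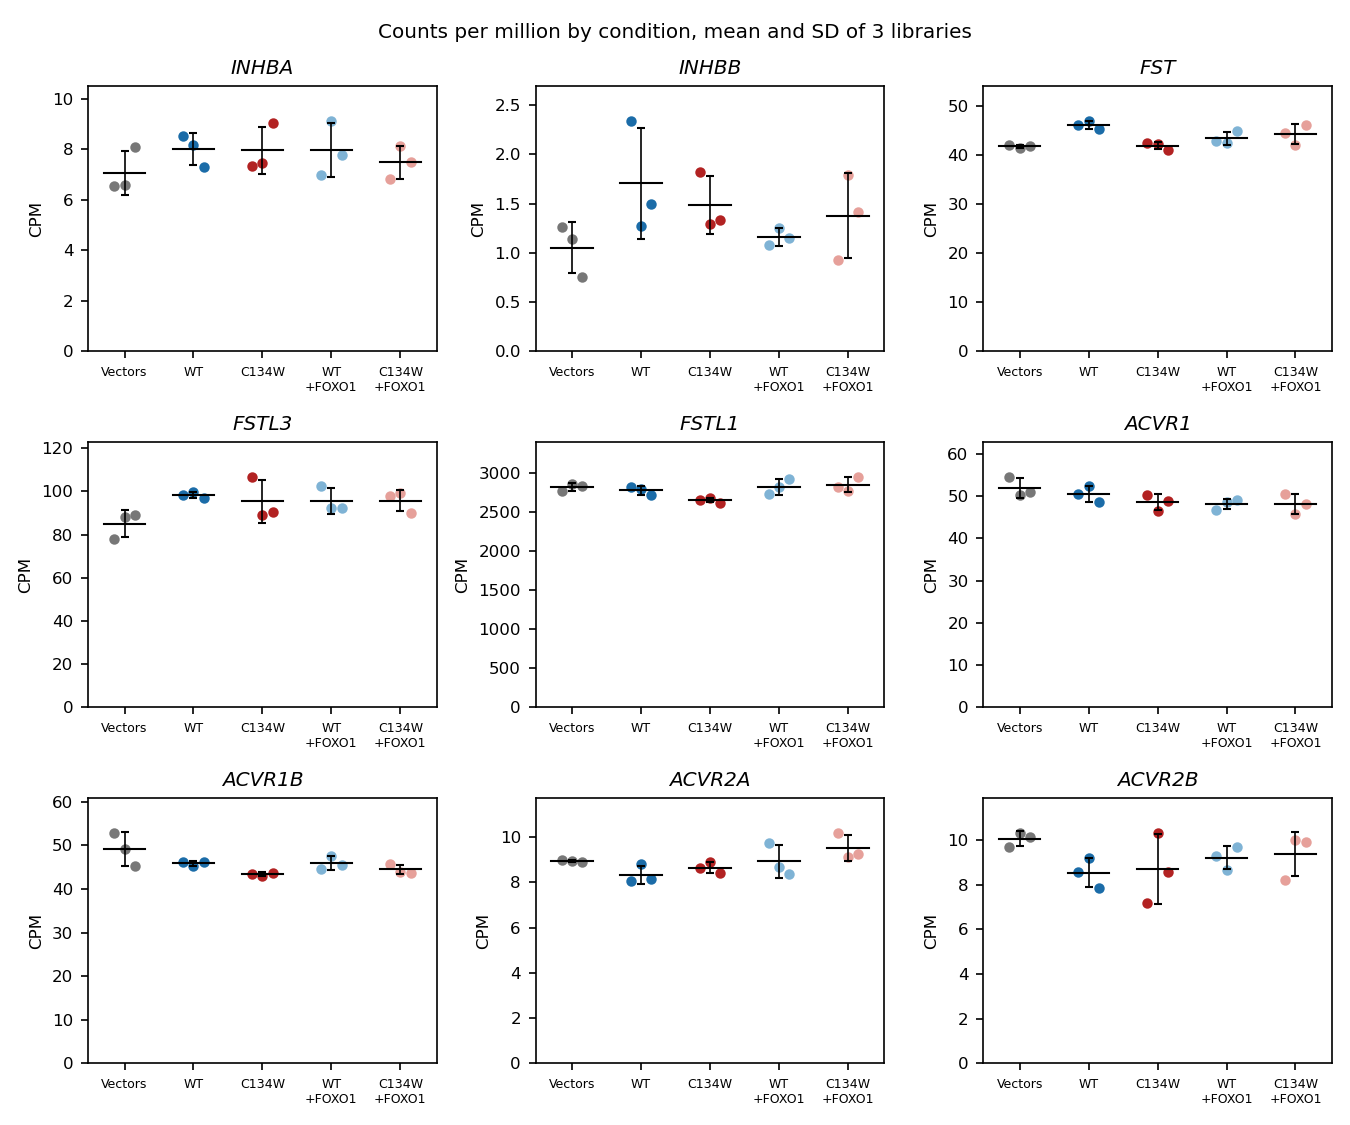
CPM (vertical axis, from 0) of the 9 tested genes in each library by condition, left to right replicates A, B and C, with the mean as a line and the SD as a bar (n = 3). The FST values of FOXL2WT (45.3 to 47.0 CPM) sit above those of Vectors and FOXL2C134W, and the highest ACVR1B value is Vectors A at 52.9 CPM.

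Of the receptors, only ACVR1B passed the edgeR test, in FOXL2C134W against Vectors. ACVR1B, the type I receptor through which activin reaches SMAD2 and SMAD3, was at 52.9, 49.2 and 45.3 CPM in Vectors and 43.5, 42.9 and 43.8 CPM in FOXL2C134W. The groups did not overlap, and Vectors spanned a wider range (SD 3.82) than FOXL2C134W (SD 0.437). It fell by 0.18 on the log2 scale (SE 0.05, 95% interval of the log2 fold change -0.29 to -0.07, edgeR adjusted p = 0.030). In FOXL2WT it was at 46.3, 45.2 and 46.3 CPM, with a log2 fold change of -0.10 against Vectors (SE 0.05, 95% interval -0.21 to 0.02, edgeR adjusted p = 0.33) and an interval of -0.20 to 0.03 between FOXL2C134W and FOXL2WT.

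The ACVR1B call depended on single libraries. Its log2 fold change was -0.11 (edgeR adjusted p = 0.20) without Vectors A, -0.18 (0.084) without Vectors B, -0.17 (0.062) without FOXL2C134W A, -0.16 (0.11) without FOXL2C134W B and -0.18 (0.063) without FOXL2C134W C. The call was kept without Vectors C (-0.23, edgeR adjusted p = 0.012). It was also lost in the fit of those 6 libraries alone (edgeR adjusted p = 0.073), with the looser count filter (0.058) and with DESeq2 and transcript length offsets (-0.08, adjusted p = 0.85). DESeq2 without these offsets kept the call (adjusted p = 0.034), as did edgeR with the DESeq2 size factors (0.033) and with the GC content offset (0.017). The replicate block kept it without and with the GC content offset (edgeR adjusted p = 0.037 and 0.023).

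ACVR1, the other type I receptor, ranged from 50.2 to 54.6 CPM in Vectors, 48.6 to 52.5 CPM in FOXL2WT and 46.5 to 50.3 CPM in FOXL2C134W. The 95% interval of its log2 difference was -0.15 to 0.07 for FOXL2WT against Vectors and -0.21 to 0.01 for FOXL2C134W against Vectors. The type II receptor ACVR2A was at 8.98, 8.95 and 8.92 CPM in Vectors and 8.04, 8.79 and 8.16 CPM in FOXL2WT, a narrow gap whose interval was -0.29 to 0.07. ACVR2B, the other type II receptor, was at 9.68, 10.3 and 10.2 CPM in Vectors and 8.57, 9.20 and 7.86 CPM in FOXL2WT, without overlap. Its log2 fold change of -0.24 (SE 0.12, 95% interval -0.49 to 0.0041) had an edgeR adjusted p of 0.25. In FOXL2C134W it spread from 7.20 to 10.3 CPM and overlapped Vectors.

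**Figure D3:**
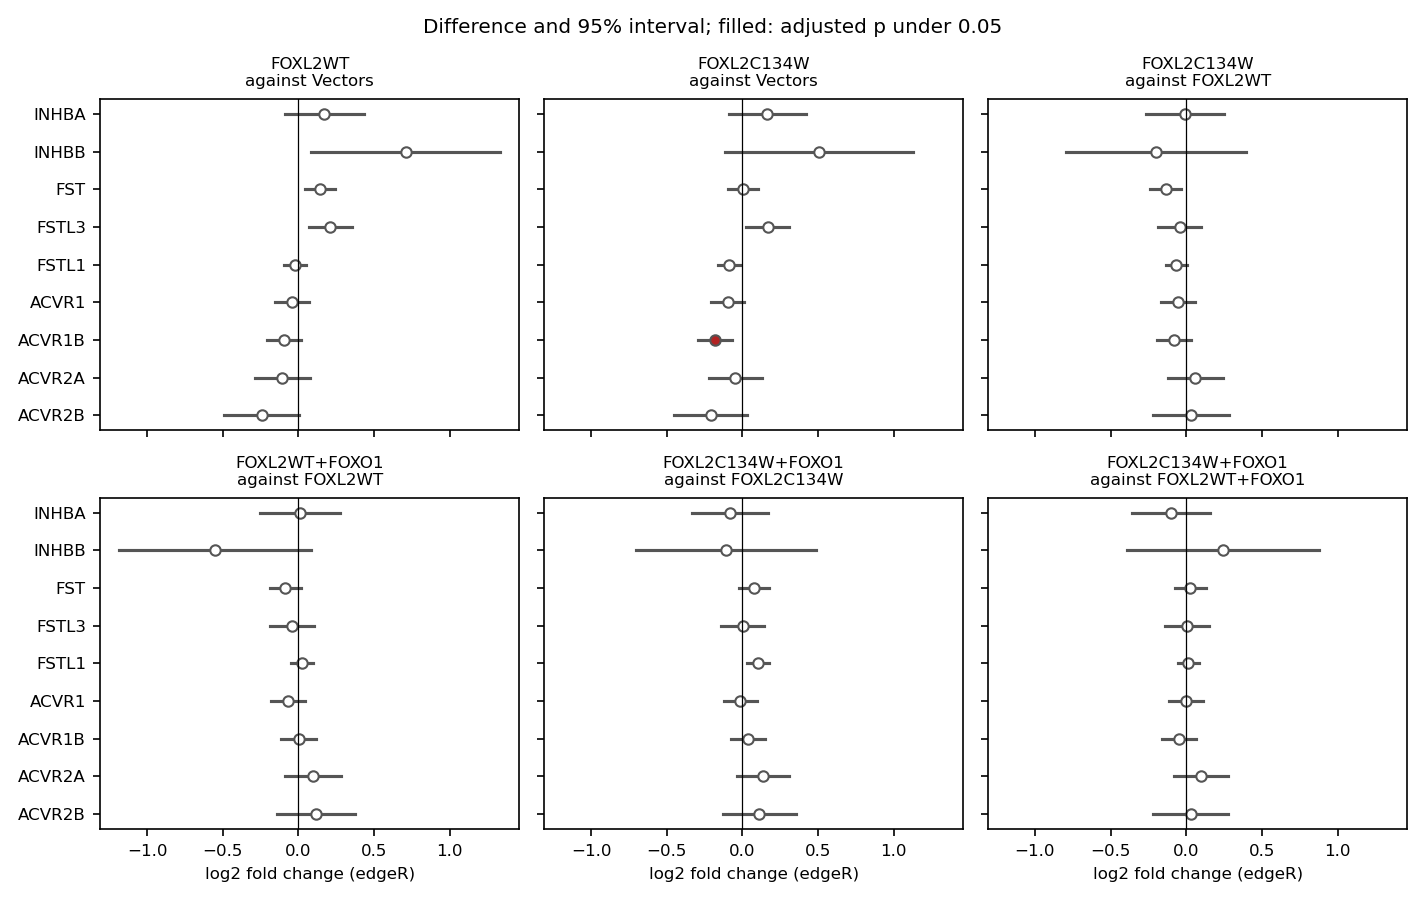
Log2 fold change (horizontal axis) of the 9 tested genes in 6 comparisons, with points for the edgeR estimate and lines for its 95% interval. The filled point, ACVR1B in FOXL2C134W against Vectors at -0.18, passed the adjusted threshold of 0.05, and INHBB has the widest intervals.

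The members called were counted in each comparison and set beside the share of all genes called. For FOXL2WT against Vectors, 0 of 9 passed the edgeR adjusted threshold, where 6.07% of the 13868 genes tested did. At an unadjusted p under 0.05 from edgeR, 3 of 9 passed (FST, FSTL3 and INHBB, all higher in FOXL2WT) against 20.8% of all genes. DESeq2 called 1 (FSTL3) against 8.79%, and with transcript length offsets 1 (FST) against 3.96%. The median log2 fold change was -0.02 over the 9 members and 0.00 over all genes.

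For FOXL2C134W against Vectors, edgeR called 1 of 9 (ACVR1B, lower) where 14.7% of all genes passed. Unadjusted, 3 of 9 passed (FSTL3 higher, ACVR1B and FSTL1 lower) against 27.6% of all genes. DESeq2 called ACVR1B alone against 17.2%, and with transcript length offsets 0 against 7.44%. The members' median log2 fold change was -0.05. For FOXL2C134W against FOXL2WT, edgeR called 0 of 9 against 11.2%. FST alone passed unadjusted, against 25.5%, and DESeq2 called 0 against 15.3% without and 1 (FST, lower in FOXL2C134W) against 6.38% with transcript length offsets. The median was -0.06 over the members and -0.01 over all genes.

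Adding FOXO1 to FOXL2WT gave edgeR calls for 0 of 9 members and for 0.0505% of all genes. Unadjusted, 0 members passed against 9.13%. DESeq2 gave an adjusted p to 5 members and 6071 genes here and called 0 of these members against 1.02%. With transcript length offsets it called 1 (FSTL1, higher) against 0.498%. For FOXL2C134W+FOXO1 against FOXL2C134W, edgeR called 0 members against 0.714%, 1 (FSTL1, higher) passed unadjusted against 11.2%, and DESeq2 called 0 against 1.86% without and 1 (FSTL1) against 0.588% with transcript length offsets. Between the FOXO1 conditions, edgeR called 0 members against 0.144%, 0 passed unadjusted against 13.5%, and DESeq2 called 0 against 0.893% without and 0 against 0.469% with the offsets. The interaction was called by edgeR for 0 members against 1.38%, 1 (FST) passed unadjusted against 12.5%, and DESeq2 called 0 against 3.27% without and 0 against 1.36% with the offsets. With the offsets, 5 members and 9295 genes had an adjusted p for the interaction. The 95% intervals of FOXL2WT+FOXO1 against FOXL2WT were within -0.25 and 0.37 on the log2 scale for every tested member other than INHBB, whose interval was -1.18 to 0.08.

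At the transcript level, most FST signal came from FST-201, which encodes the 344-residue long precursor. It made up 72.1 ± 5.88% of FST TPM in Vectors, 64.0 ± 6.14% in FOXL2WT and 69.8 ± 1.21% in FOXL2C134W (SD, n = 3). FST-202, which encodes the 317-residue precursor of the short, cell-surface form, made up 13.7 ± 0.816%, 12.7 ± 0.766% and 14.5 ± 1.70% in the same order, 12.8 ± 3.76% in FOXL2WT+FOXO1 and 9.55 ± 1.58% in FOXL2C134W+FOXO1. Of the reads of these transcripts together, FST-202 took 17.6 ± 1.64% in Vectors, 18.2 ± 1.43% in FOXL2WT, 18.8 ± 1.85% in FOXL2C134W and 13.6 ± 1.74% in FOXL2C134W+FOXO1, whose highest library (15.3%) lay below the lowest FOXL2C134W library (17.0%). In FOXL2WT+FOXO1 the share was 18.1 ± 5.46%, from 14.1 to 24.3%, which overlapped FOXL2WT.

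The 705-base transcript FST-205 rested on 18.0 to 87.5 estimated reads per library. Its share of FST TPM was 12.7 ± 4.39% in Vectors, 23.3 ± 6.37% in FOXL2WT, 15.7 ± 1.99% in FOXL2C134W, 21.9 ± 1.48% in FOXL2WT+FOXO1 and 22.4 ± 3.94% in FOXL2C134W+FOXO1. FOXL2WT and Vectors overlapped. This transcript moved with the difference in FST between FOXL2WT and Vectors, whose log2 ratio was 0.25 in TPM and 0.14 in CPM, and its part in that difference was not tested.

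**Figure D4:**
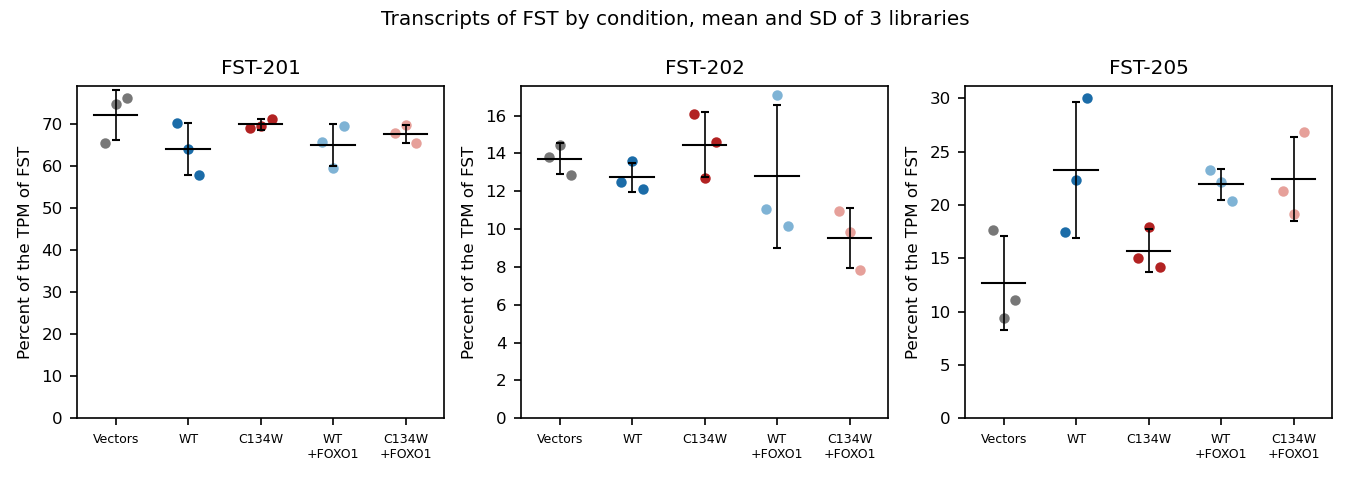
Share of FST TPM (percent, vertical axis from 0) held by FST-201, FST-202 and FST-205 in each library by condition, with the mean as a line and the SD as a bar (n = 3). FST-201 holds the largest share in every library, and FST-205 is at 12.7% in Vectors and 23.3% in FOXL2WT on average.

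For FSTL3, FSTL3-201, which encodes the whole 263-residue protein, held 68.4 ± 5.63% of TPM over the 15 libraries, and FSTL3-206, with an annotated reading frame of 40 residues, held 28.8 ± 5.20%. FSTL1-201 (308 residues) took 80.1% of FSTL1 reads but 24.5% of its TPM, because the 313-base FSTL1-210 took 27.2% of TPM from 1.06% of the reads. ACVR1-206 held 77.6% of ACVR1 TPM, ACVR1B-201 held 87.3% of ACVR1B TPM, ACVR2B-201 held 92.7% of ACVR2B TPM and INHBA-201 held 83.6% of INHBA TPM. ACVR2A-202 held 21.1 to 80.9% of ACVR2A TPM. Every library also had reads assigned to ACVR2A-201 or ACVR2A-207, transcripts of 5214 and 5166 bases, and no library had both. ACVR2A-201 held 27.7 to 39.2% in the 3 FOXL2C134W libraries, where ACVR2A-207 was at 0, and ACVR2A-207 held 19.1 to 27.9% in the 3 FOXL2WT libraries, where ACVR2A-201 was at 0. Vectors and FOXL2WT+FOXO1 had libraries of either kind, with replicate A on ACVR2A-201 and replicates B and C on ACVR2A-207, and the 3 FOXL2C134W+FOXO1 libraries had ACVR2A-207 at 13.7 to 35.5%. These are estimated assignments of reads, and a difference between conditions in them was not tested.

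The wider pathway was covered by a further list. Of its 36 ligands, coreceptors, convertases, SMADs and inhibitors, 20 had enough counts to be tested. In FOXL2WT against Vectors edgeR called 1 of 20 (BAMBI, lower), in FOXL2C134W against Vectors 4 of 20 (SKI and SMURF2 higher, BAMBI and ACVRL1 lower) and in FOXL2C134W against FOXL2WT 3 of 20 (SKI and FURIN higher, BAMBI lower). The shares of all genes called were the 6.07%, 14.7% and 11.2% given above. In the FOXO1 comparisons and the interaction edgeR called 0 of 20. At an unadjusted p under 0.05 the numbers were 2 of 20 (FOXL2WT+FOXO1 against FOXL2WT), 4 (FOXL2C134W+FOXO1 against FOXL2C134W), 3 (between the FOXO1 conditions) and 2 (interaction), beside 9.13%, 11.2%, 13.5% and 12.5% of all genes. DESeq2 called SKI (lower) in FOXL2C134W+FOXO1 against FOXL2C134W, where it called 1.86% of all genes, and SMURF2 (higher) in FOXL2C134W+FOXO1 against FOXL2WT+FOXO1, where it called 0.893%, and 0 in FOXL2WT+FOXO1 against FOXL2WT and in the interaction, beside 1.02% and 3.27% of all genes. With transcript length offsets it called 0 of the list in these comparisons. DESeq2 left some of the 20 genes without an adjusted p, and without the offsets gave one to 13 in FOXL2WT+FOXO1 against FOXL2WT.

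BAMBI, a pseudoreceptor that resembles a type I receptor, lacks its kinase and blocks activin and TGF-beta signaling, was at 80.8, 75.9 and 77.7 CPM in Vectors, 63.1, 60.2 and 68.6 CPM in FOXL2WT and 55.4, 50.9 and 55.8 CPM in FOXL2C134W. The 3 conditions did not overlap. It fell by 0.28 on the log2 scale (SE 0.05, edgeR adjusted p = 0.0033) in FOXL2WT and by 0.53 (SE 0.05, edgeR adjusted p = 3.5e-06) in FOXL2C134W against Vectors, and by 0.25 (SE 0.05, edgeR adjusted p = 0.0061) in FOXL2C134W against FOXL2WT. The last call was lost without FOXL2WT C (-0.18, edgeR adjusted p = 0.053) and without FOXL2C134W B (-0.20, edgeR adjusted p = 0.053). With FOXO1 it was at 66.6 ± 2.40 CPM in FOXL2WT+FOXO1 and 59.8 ± 1.40 CPM in FOXL2C134W+FOXO1.

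SKI, a corepressor that binds SMAD2, SMAD3 and SMAD4, was at 44.0, 43.0 and 46.2 CPM in Vectors, 44.8, 43.8 and 42.6 CPM in FOXL2WT and 57.8, 57.2 and 53.5 CPM in FOXL2C134W. FOXL2C134W was higher than both, with log2 fold changes of 0.34 (SE 0.06, edgeR adjusted p = 4.7e-04) against Vectors and 0.36 (SE 0.06, edgeR adjusted p = 5.0e-04) against FOXL2WT. With DESeq2 and transcript length offsets neither passed (adjusted p = 0.32 and 0.16, log2 fold changes 0.52 and 0.68). In FOXL2C134W+FOXO1 it was at 48.0, 50.5 and 44.9 CPM, below all FOXL2C134W libraries, and the 95% interval of that log2 difference was -0.35 to -0.12 (edgeR adjusted p = 0.058).

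SMURF2, a ubiquitin ligase that targets receptors and SMADs, rose in FOXL2C134W against Vectors by 0.23 on the log2 scale (SE 0.04, edgeR adjusted p = 0.0016), from 155 ± 3.36 to 182 ± 2.90 CPM. In FOXL2WT it was at 172 ± 5.01 CPM, also above all Vectors libraries. The 95% interval of that log2 difference was 0.05 to 0.24 (edgeR adjusted p = 0.061, DESeq2 adjusted p = 0.042). Between FOXL2C134W and FOXL2WT the interval was -0.01 to 0.18 (edgeR adjusted p = 0.23). FURIN, a convertase that cleaves activin precursors, rose in FOXL2C134W against FOXL2WT by 0.20 (SE 0.05, edgeR adjusted p = 0.016), from 70.7 ± 3.47 to 81.0 ± 5.09 CPM. Vectors lay between, at 76.7 ± 0.816 CPM. Against Vectors the 95% interval of the log2 difference was -0.03 to 0.18 for FOXL2C134W (edgeR adjusted p = 0.33) and -0.22 to -0.01 for FOXL2WT (edgeR adjusted p = 0.19, and 0.034 with the GC content offset). The FURIN call was lost without FOXL2WT B (0.18, edgeR adjusted p = 0.076), without FOXL2WT C (0.19, 0.059) and without FOXL2C134W A (0.15, 0.052), and with DESeq2 and transcript length offsets (0.35, adjusted p = 0.84). ACVRL1, a type I receptor of the BMP branch, rested on 20 to 54 counts and fell from 2.12 ± 0.381 CPM in Vectors to 1.20 ± 0.118 CPM in FOXL2C134W, by 0.81 on the log2 scale (SE 0.23, edgeR adjusted p = 0.024). That call was lost without Vectors A (-0.72, edgeR adjusted p = 0.095), Vectors B (-0.74, 0.090), FOXL2C134W A (-0.75, 0.072) or FOXL2C134W B (-0.78, 0.080), and with DESeq2 and transcript length offsets (-0.31, adjusted p = 0.84). For FOXL2C134W against Vectors, DESeq2 without the offsets gave an adjusted p to 18 of the 20 tested genes of the list. ACVRL1 was not among its calls, but may have been left without an adjusted p at these low counts. In FOXL2WT it was at 1.40 ± 0.279 CPM. The 95% interval of the log2 difference was -1.09 to -0.10 for FOXL2WT against Vectors (edgeR adjusted p = 0.15). For FOXL2C134W against FOXL2WT it was -0.74 to 0.31 (edgeR adjusted p = 0.65). SMURF2, FURIN and the fall of SKI with FOXO1 were chosen for description after their values were seen.

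**Figure D5:**
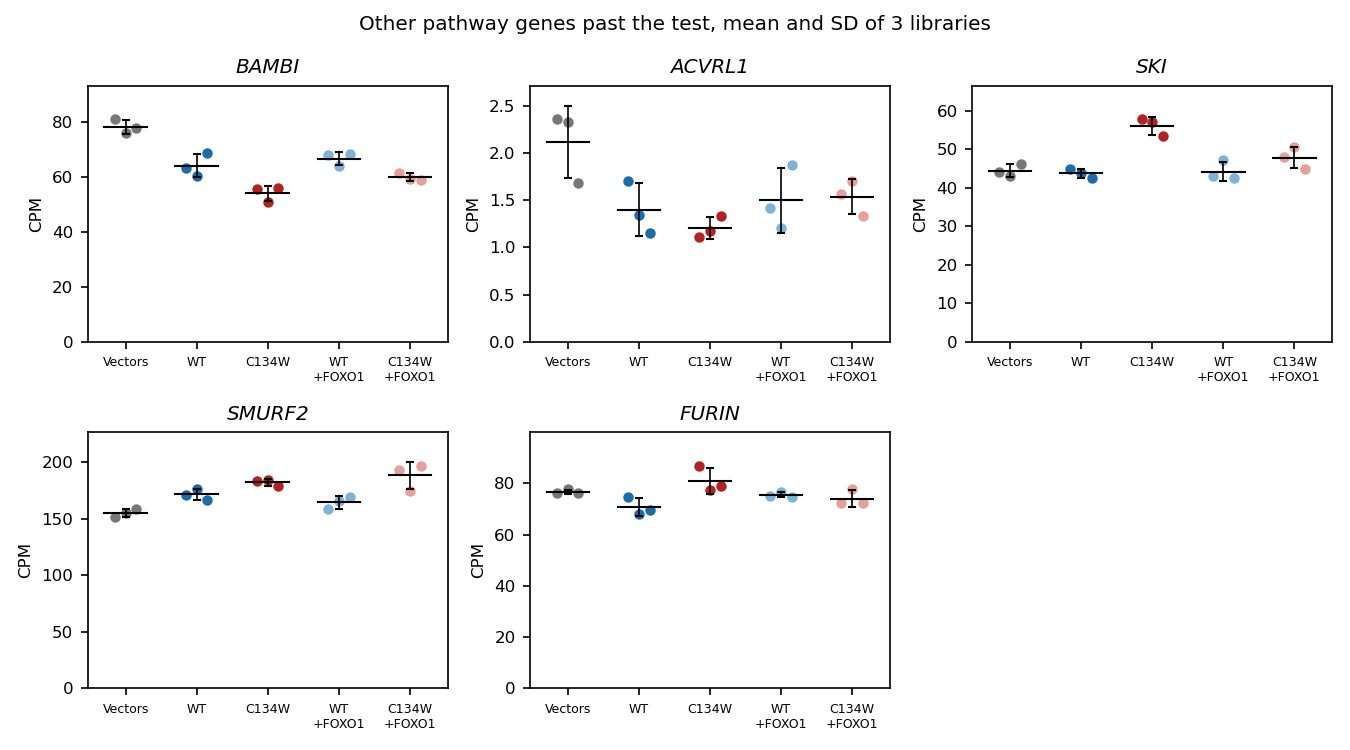
CPM (vertical axis, from 0) of the 5 other pathway genes that passed the edgeR test in any comparison, in each library by condition, with the mean as a line and the SD as a bar (n = 3). BAMBI is highest in Vectors (75.9 to 80.8 CPM) and lowest in FOXL2C134W (50.9 to 55.8 CPM), and SKI is highest in FOXL2C134W (53.5 to 57.8 CPM).

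The remaining tested genes of the list, among them SMAD2 (120 to 136 CPM), SMAD4 (116 to 139 CPM), SMAD7 (52.1 to 61.3 CPM), BMPR2 (149 to 203 CPM) and FKBP1A (265 to 307 CPM), passed in no comparison in the edgeR test of all 15 libraries with TMM scaling. Of these remaining genes, 4 passed under another setting and were chosen for description after their values were seen. PCSK7, a convertase, was higher in FOXL2C134W than in FOXL2WT with DESeq2 (adjusted p = 0.045), with its size factors in edgeR (0.050, just under the threshold), with the GC content offset (0.033, and 0.039 with the replicate block) and without FOXL2WT C (0.027). With the GC content offset edgeR also called CTDSPL2, lower in FOXL2C134W than in FOXL2WT (adjusted p = 0.016), and SKIL, higher than in Vectors in FOXL2C134W (0.0055) and FOXL2WT (0.048). INHBE, another beta subunit gene, was higher in FOXL2WT than in Vectors in the fit of those 6 libraries alone (edgeR adjusted p = 0.030). The TGF-beta family ligands NODAL and BMP15 had 0 counts in every library, and MSTN, GDF9, ACVR1C and TDGF1 had at most 5.

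By likeness of log2-CPM over the 15 libraries, the genes closest to ACVR1B were PBK (Pearson r = 0.90), GPX3 (0.90) and WBP1L (0.88), and those closest to INHBB were CUEDC1 (0.84), ADCY3 (0.80) and LMF1 (0.79). These are the highest values among 13867 genes over libraries that share conditions and are given as a description.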

How the data were processed

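Samples were assigned to conditions and replicates from their labels. Reads were 75-bp, single-end and from a stranded mRNA kit. The authors made the deposited estimated counts with Salmon 1.1.0 on hg38 transcripts with GENCODE identifiers, and summed and rounded them per gene. The deposited TPM values are per transcript. The GENCODE release was not given in the sources used here. Coordinates and GC content came from GENCODE 44. No column was left unmapped.

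The counts of all 15 libraries were fitted together with the quasi-likelihood test of edgeR 4.0.16 (R 4.3.3), after filterByExpr (13868 genes left) and TMM scaling. A prior count of 2 was used for log2-CPM. The calling threshold was an adjusted p (Benjamini-Hochberg, over all genes tested) under 0.05. Intervals are 95% and two-sided, from the fit. CPM uses TMM library sizes. TPM was summed over transcripts. Replicates of a condition differed by more than counting noise (chi-square per degree of freedom 2.21 to 8.84), so no library repeated another of its own condition. The scripts were tested on simulated data.

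Alternatives were DESeq2 1.42.0, with and without average transcript length offsets, its size factors in edgeR, every gene with at least 1 count, only the conditions compared, the replicate letter as a block, a GC content offset, and leaving out each replicate. An adjusted p that DESeq2 left missing was not counted, and the DESeq2 shares are of the genes that had one. The members, the list of 36 pathway genes and the tests were chosen with earlier results of these data known. Named genes were the 10 members, the transfected genes, the called gene of the list with the largest and with the smallest log2 fold change in each comparison, and, for the 2 members with the most calls (ties by range), the 3 most correlated genes. Promoter windows came from RefSeq, with motifs searched as exact letters.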

Additional observations from a re-analysis of the deposited data

How the results depend on the processing

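All 19 fold changes given kept their direction in every fit that gave an adjusted p. The count of members called by edgeR in FOXL2WT against Vectors went from 0 to 1 with DESeq2, with DESeq2 and transcript length offsets, with every gene of at least 1 count, with only the conditions compared and with the replicate block plus GC content offset, and to 2 with the GC content offset. In FOXL2C134W against Vectors it went from 1 to 0 with transcript length offsets and with only the conditions compared, and with every gene of at least 1 count it was 1 but held FSTL3 in place of ACVR1B. In FOXL2C134W against FOXL2WT it went from 0 to 1 with transcript length offsets and with the GC content offset, and in each comparison of a FOXO1 condition with its own FOXL2 form from 0 to 1 with transcript length offsets. Leaving out a replicate gave 0 to 1 members in FOXL2C134W against Vectors and 0 in the other comparisons. The letters of the replicates did not pair the samples (2 of 30 same-letter pairs correlated above 0.1, median 0.0036), and the replicate block changed no count of members (1 in FOXL2C134W against Vectors, 0 elsewhere). Calls over all genes were 842, 2041, 1560, 7, 99, 20 and 192 in the order of the report (interaction last). With transcript length offsets they became 496, 971, 764, 69, 61, 65 and 126. With every gene of at least 1 count, FOXL2WT against Vectors gave 1345, and the FOXO1 comparisons and interaction gave 260, 463, 446 and 551. With only the conditions compared the changed counts were 1690, 14, 32 and 9. DESeq2 gave 62, 223, 95 and 365 in the last 4, the GC content offset 23, 35 and 60 in the FOXO1 comparisons, and the replicate block with it 23, 45, 63 and 119 in the last 4. Leaving out a replicate gave ranges of 305 to 662, 1275 to 2126, 772 to 2120, 2 to 7, 5 to 355, 7 to 20 and 45 to 423. The cause of these shifts was not tested. The log2 ratio of FST in FOXL2WT over Vectors was 0.25 in TPM and 0.14 in CPM, and FST-205 held 23.3% of FST TPM but 6.06% of its reads in FOXL2WT, since TPM weighs a read of a short transcript more. With 3 libraries a condition, members at low counts were limited most: the interval of INHBB spanned 0.08 to 1.33 where that of FST spanned 0.04 to 0.24, and INHA could not be tested.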
